A study of Mus musculus with 4 samples.

Results

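The mix of ampicillin, metronidazole, neomycin and vancomycin given into a vein was compared with phosphate-buffered saline (PBS) given into a vein, in the stool bacteria of wild-type C57BL6/J mice. The libraries were those that the authors' sample sheets list as day 4, IV and Mix, 6 libraries of 6 mice, against those listed as day 4, IV and PBS, 6 libraries of 6 mice, together 12 of the 198 libraries in the composition table. IV mix mice were 8 to 12 weeks old and received the 4 antibiotics in 100 µl of PBS, with 2 doses on each of 3 days and a last dose on day 4. IV PBS mice were of the same age and received 100 µl of PBS on the same schedule. The labels give 2.5 mg of antibiotic per dose, and do not state whether the mix held that amount of each drug or in all. Stool was also collected at day 0, before treatment, from these groups, with 6 libraries each. The day 0 IV mix group holds a mouse without a day 4 IV mix library. It lacks the mouse of day 4 replicate 1, described below. The mice kept their own intestinal bacteria, as raised under specific pathogen free conditions, and which animals shared a cage is not stated in the labels.

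The V4 stretch of the bacterial 16S ribosomal RNA gene was read, and each value is a taxon's percent of a library's reads, so a rise of 1 taxon lowers the percent of the others and no value is an amount of bacteria per gram of stool. Ampicillin and vancomycin block the building of the bacterial cell wall, neomycin acts on the ribosome, and metronidazole damages the DNA of anaerobes. In laboratory mice the colon is usually filled by Muribaculaceae, which are anaerobic degraders of plant and host glycans in the order Bacteroidales, and by Lachnospiraceae and Oscillospiraceae, anaerobic clostridia that include many butyrate producers.

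Some libraries stood apart or went against their labels. The IV mix library of replicate 5 held 65 reads, whereas the other 5 IV mix libraries held 15171 to 123669 and the IV PBS libraries 8556 to 38424. A value of 0 in the 65-read library allows a true share of up to 4.62% (3 reads), against limits of 0.00243% to 0.0198% in the other IV mix libraries and 0.00781% to 0.0351% in the IV PBS libraries. The mouse of IV mix replicate 1 is listed at day 0 under the intraperitoneal mix, so its route is uncertain, and it was left out of comparisons within mice. All IV mix libraries came from sequencing run ok122, whereas IV PBS replicates 1 to 3 came from run ok122 and replicates 4 to 6 from run SB1. At day 0 the IV PBS libraries were shallower, with 529 to 13948 reads, than the IV mix libraries, with 12132 to 34537. All day 0 libraries of both groups came from run ok122, so the changes within mice of IV PBS replicates 4 to 6 cross runs. For the main results, values without the 65-read library or within run ok122 are given beside them.

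The first comparison asked how the bacterial community differed after treatment. The IV mix libraries did not share a single composition. Their leading genus was Borkfalkia in 2 libraries, and Phocaeicola, Bacteroides_H, Streptococcus and Duncaniella in 1 each. Replicates 2 and 3 were led by Borkfalkia, with 68.7% and 93.1% of reads, against 0.247% and 0.390% in the same mice at day 0. Exact binomial 95% intervals, which cover counting error only, were 68.0% to 69.5% and 92.8% to 93.4%. Borkfalkia, of the family Borkfalkiaceae, is known from human stool, where it has been seen to take over after ceftriaxone. It held between 0 and 0.340% in the other 4 IV mix libraries and between 0.0304% and 0.326% in the 6 IV PBS libraries. Replicate 2 also held 9.23% Cryptobacteroides, 3.65% Pelethenecus, a genus of the wall-less Anaeroplasmataceae, and 3.59% Burkholderia.

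Replicates 1 and 4 were led by other members of the Bacteroidales. Phocaeicola, whose reads in these libraries were named vulgatus, a glycan degrader common in the human colon, held 31.1% in replicate 1 and 22.8% in replicate 4. It was at 0 in both of these mice at day 0, and its highest value in an IV PBS library was 0.0838%. Bacteroides_H, of the same family, held 6.35% in replicate 1 and 37.9% in replicate 4, against 0.152% to 1.21% in IV PBS libraries. Replicate 1 also held 17.95% Escherichia, a facultative anaerobe of the Enterobacteriaceae, which was at most 0.0419% in IV PBS libraries and was at 0 in all of the day 0 libraries of both groups. Vagococcus fluvialis, a lactic acid bacterium, held 2.03% in that library and was at 0 in the other IV mix libraries and in the IV PBS libraries.

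Replicate 6 differed least from its own day 0 library among the mice compared within themselves. Its leading genera were Duncaniella (Muribaculaceae) with 23.3%, Akkermansia with 22.9% and Prevotella with 21.8%. Akkermansia, a mucin degrader, had been at 0.0232% in that mouse at day 0, and held up to 4.06% in IV PBS libraries. The 65-read library, replicate 5, held 29 reads of Streptococcus (44.6%, exact 95% interval 32.3% to 57.5%), 16 of Prevotella histicola (24.6%), 11 of Prevotella sp902776665 (16.9%), 5 of Gemella (7.69%) and 4 of Rothia (6.15%). Streptococcus, Gemella, Rothia and Prevotella histicola are best known as residents of the human mouth. All 4 were at 0 in that mouse at day 0 and in every other day 0 library of the series. Only Prevotella sp902776665, with 16.1% at day 0, was a leading taxon of that mouse on both days.

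**Figure D1:**
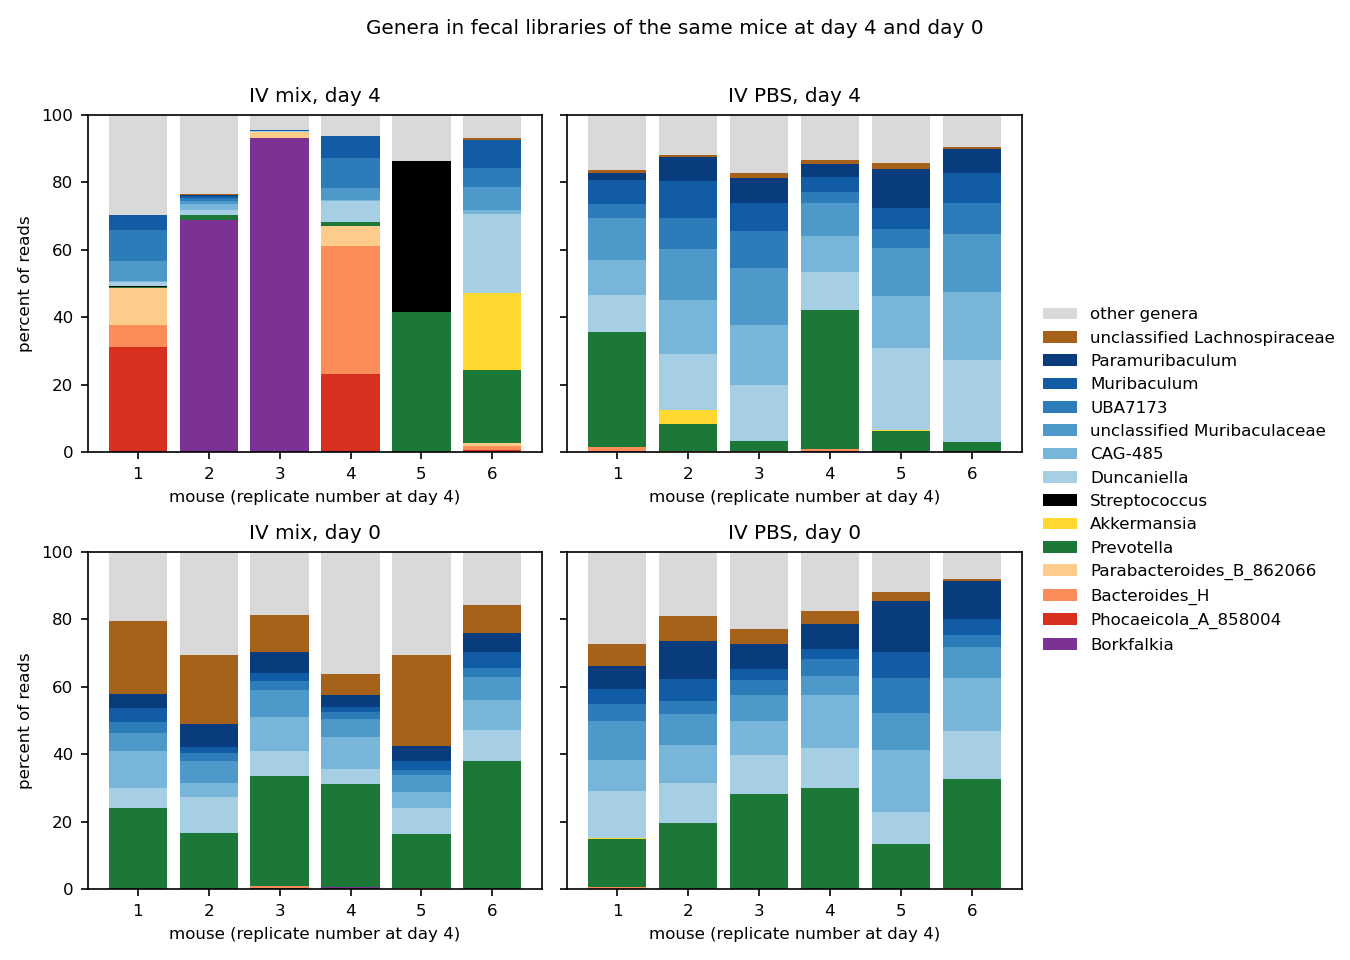
Stacked bars give the percent of reads of 14 genera and of all others in each mouse, at day 4 (upper panels) and day 0 (lower panels), IV mix left and IV PBS right; mouse 1 of the mix is listed as intraperitoneal at day 0. The 6 IV mix libraries at day 4 differ from one another, with Borkfalkia at 68.7% and 93.1% in mice 2 and 3, while IV PBS libraries hold mostly Muribaculaceae (blue) and Prevotella (green).

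Diversity was lower in the IV mix libraries. The Shannon index, which rises with the number and evenness of taxa, was 2.53, 1.495, 0.383, 2.21, 1.37 and 2.48 in IV mix replicates 1 to 6, against 2.79, 2.99, 3.15, 2.58, 2.97 and 2.84 in IV PBS replicates 1 to 6. All 6 IV mix values lay below all 6 IV PBS values. The means were 1.75 ± 0.828 in IV mix mice and 2.89 ± 0.197 in IV PBS mice (SD, n = 6 each). The difference of -1.14 had p = 0.00216 in a two-sided exact permutation test, the smallest that 6 against 6 can give, and adjusted p = 0.0162 over the 15 comparisons of an antibiotic with PBS of its route. Without the 65-read library the difference was -1.07 (adjusted p = 0.0162), and without IV mix replicates 1 and 5 together it was -1.25 (adjusted p = 0.0238). With run ok122 only, where 3 IV PBS libraries remain, it was -1.23 (exact permutation p = 0.0357, and 0.1 after adjustment).

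With reads summed by genus the difference was -0.87 (exact permutation, adjusted p = 0.0238). With reads summed by family it was 0.25, in the opposite direction, and did not pass the test (exact permutation, adjusted p = 0.714). The single family Muribaculaceae held 45.7% to 90.1% of the reads of IV PBS libraries. With every library thinned to 1000 reads, which leaves out the 65-read library, IV mix libraries held 44, 38, 13, 42 and 36 taxa of the table in replicates 1, 2, 3, 4 and 6. IV PBS libraries held 75, 57, 78, 64, 49 and 42. The means were 34.6 ± 12.5 in IV mix (SD, n = 5) and 60.8 ± 14.2 in IV PBS libraries (SD, n = 6), and the groups overlapped in the range 42 to 44.

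**Figure D2:**
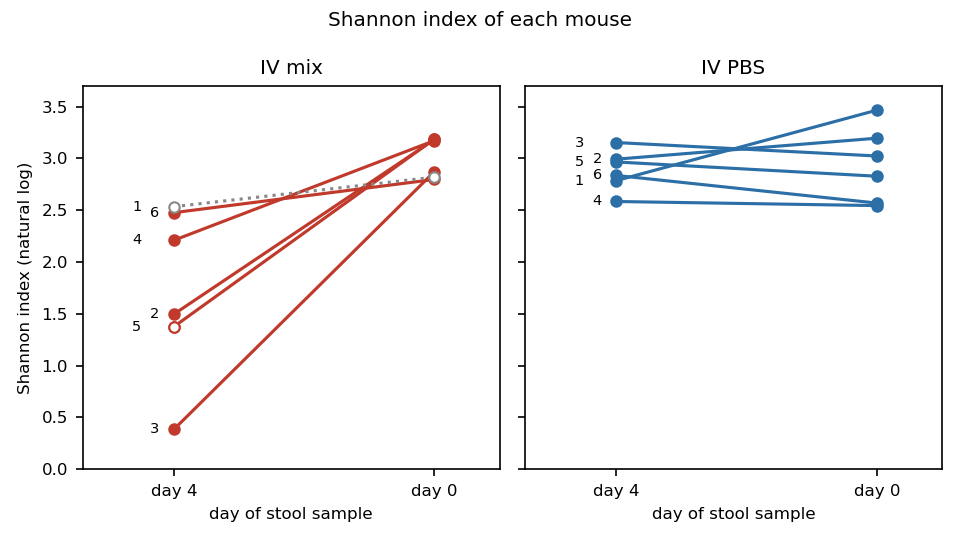
The Shannon index (natural log) of each mouse is joined between day 4 (left) and day 0 (right) for IV mix mice (left panel) and IV PBS mice (right panel), with the replicate number at day 4. The open red point is the 65-read library and the dotted grey line the mouse with 2 routes; all IV mix values at day 4 lie below 2.58, the lowest IV PBS value at day 4.

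The composition as a whole differed too, and the IV mix libraries were far from one another. Group membership accounted for R2 = 0.309 of the squared Bray-Curtis distances at day 4 (exact permutation test, p = 0.00216, adjusted p = 0.0108 over 15 comparisons); a Bray-Curtis distance is 0 for identical and 1 for disjoint compositions. Within run ok122 R2 was 0.246 (exact permutation test, p = 0.0476, adjusted p = 0.0952). With any 1 library left out, that of 65 reads among them, R2 ran from 0.288 to 0.380. The mean distance between 2 libraries of the same group was 0.857 ± 0.207 among IV mix libraries (SD, 15 pairs) and 0.328 ± 0.116 among IV PBS libraries (SD, 15 pairs). Among the 10 pairs without the 65-read library it was 0.805 ± 0.236. IV mix replicates 2 and 3, the pair with Borkfalkia, were the closest at 0.269, followed by replicates 1 and 4 at 0.538. The other 13 pairs were at least 0.724 apart, beyond 0.473, the largest distance between 2 IV PBS libraries. A test on distances also responds to such a difference in spread, and its share in R2 was not tested.

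**Figure D3:**
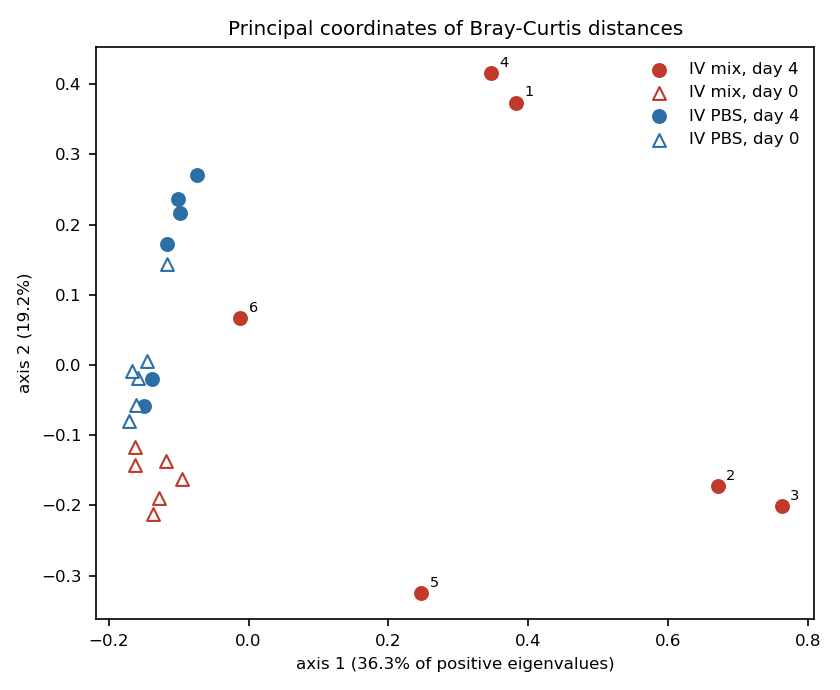
Principal coordinates of Bray-Curtis distances between the 24 IV mix and IV PBS libraries, with the share of positive eigenvalues on each axis; circles are day 4, triangles day 0, and numbers are IV mix replicates at day 4. IV mix libraries at day 4 lie apart from one another, replicates 2 and 3 nearest at a distance of 0.269, and IV PBS libraries of both days lie on the left with the day 0 libraries of IV mix mice.

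Genus by genus, more genera were lower than higher in percent of reads. Of 95 genera found in 20% or more of the day 4 samples, 36 were lower (37.9%) and 5 higher (5.26%) in IV mix than in IV PBS libraries, together 43.2%, at an adjusted p under 0.05 (limma on log2 of percent plus 0.01, Benjamini-Hochberg over all genera). Log2 changes are on that scale, and understate changes of rare genera. Without the 65-read library 34 were lower and 7 higher (43.2% together), and 37 of the 41 genera passed in both fits, all in the same direction. With run as a covariate 43 were lower and 2 higher, and in run ok122 alone 37 of 96 were lower and 1 higher. Without the filter on presence 35 of 279 were lower and 15 higher. With centred log ratios in place of percent, for which the median change of all genera was -0.02, against -1.46 in percent, 21 were lower and 19 higher. The split between losses and gains therefore depends on the scaling, and the changes below are best read against that median. Of all 95 genera tested 13 lay below every IV PBS library in all 6 IV mix libraries, and all 13 were among the 36 lower ones. Of the 36 lower genera 11 were at 0 in all 6 IV mix libraries. In the 5 deeper IV mix libraries, without that of 65 reads, these counts were also 13 and 11. Medians over lists include such genera at 0, whose fitted changes depend on the added 0.01. In a fit of the 12 IV mix and IV PBS libraries alone 35 genera were lower and 0 higher, so none of the rises below passed there.

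Among the Muribaculaceae, 7 of the 8 tested genera were lower in IV mix libraries, with a median log2 change of -4.64 over the 8. Over all 95 genera 37.9% were lower, with a median of -1.46. Leaving out the 65-read library, 5 of the 8 were lower, and with centred log ratios 6. The family's sum was 21.2%, 6.22%, 0.496%, 25.6%, 0 and 46.8% in IV mix replicates 1 to 6, against 45.7% to 90.1% in IV PBS libraries. Replicate 6 alone reached the IV PBS range. As a family, Muribaculaceae averaged 16.7 ± 18.2% in IV mix and 71.7 ± 18.9% in IV PBS libraries (SD, n = 6 each; log2 change -4.51, limma adjusted p = 0.00136), and -2.86 without the 65-read library (adjusted p = 0.0253).

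Paramuribaculum had the largest fall of the genera tested. It held 0.0456%, 0.481%, 0, 0.021%, 0 and 0.0536% in IV mix replicates 1 to 6, against 2.27%, 6.93%, 7.57%, 3.83%, 11.7% and 7.14% in IV PBS replicates 1 to 6. The groups did not overlap, and the log2 change was -7.12 ± 1.11 (SE; limma adjusted p = 6.52e-07), or -6.70 without the 65-read library (adjusted p = 9.6e-06). CAG-485, a genus known only by a genome code, had a median of 0.196% (0 to 1.75%) in IV mix and of 15.7% (10.3% to 20.04%) in IV PBS libraries, without overlap. Its log2 change was -6.43 ± 1.37 (SE; limma adjusted p = 0.000147), or -5.62 without the 65-read library (adjusted p = 0.00128). UBA3263 held at most 1.13% in IV mix and at least 1.47% in IV PBS libraries (log2 change -5.48, limma adjusted p = 0.000147). CAG-873 held at most 0.472% in IV mix and at least 0.57% in IV PBS libraries (-4.80, adjusted p = 0.00108). Muribaculaceae reads with no genus name held at most 6.69% in IV mix and at least 9.74% in IV PBS libraries (-4.49, adjusted p = 0.00227). These 3 also passed without the 65-read library, with changes of -5.00, -4.38 and -3.30 in the same order.

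Other genera of that family did not all share these falls. Duncaniella was lower over all 6 libraries (log2 change -4.43, limma adjusted p = 0.00612), but held 23.3% in replicate 6, within the IV PBS range of 10.96% to 24.3%. Without the 65-read library its change was -3.17 and did not pass (adjusted p = 0.0522). Muribaculum, whose named species intestinale is a common mouse commensal, had -3.25 (adjusted p = 0.0275), and did not pass without that library (adjusted p = 0.17). It held 4.40%, 6.47% and 8.09% in replicates 1, 4 and 6 and 0.5998% and 0.137% in replicates 2 and 3, against 4.55% to 11.2% in IV PBS libraries. UBA7173 did not pass (-2.72, adjusted p = 0.0725). It held 9.12%, 9.04% and 5.87% in replicates 1, 4 and 6, inside the IV PBS range of 3.30% to 10.9%, and 0.771% and 0.226% in replicates 2 and 3, below it.

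The clostridial families were lower in IV mix libraries as well. Lachnospiraceae together held 0.154%, 0.435%, 0.0286%, 0.208%, 0 and 1.33% in IV mix replicates 1 to 6, against 1.77% to 7.50% in IV PBS libraries, without overlap. The family's log2 change was -4.94 ± 1.28 (SE; limma adjusted p = 0.00136), or -4.17 without the 65-read library (adjusted p = 0.00744). Of its 27 tested genera 13 were lower and 0 higher (12 and 0 without that library), with a median log2 change of -1.87. Over all 95 genera 37.9% were lower, with a median of -1.46. With centred log ratios 6 were lower and 2 higher, against 21 lower and 19 higher of all 95, so the call for several of them depends on the scaling.

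COE1 was the lachnospiraceous genus with the largest fall. It was at 0 in 5 IV mix libraries and at 0.119% in replicate 2, against 0.174% to 1.40% in IV PBS libraries (log2 change -5.27 ± 0.98 SE, limma adjusted p = 2.78e-05; -5.15 without the 65-read library, adjusted p = 0.000139). Acetatifactor, named for acetate production in the mouse caecum, was at 0 in 5 IV mix libraries and at 0.0179% in replicate 6. It ranged from 0 to 2.48% in IV PBS libraries (-4.30, adjusted p = 0.00451). Within run ok122 its change was -3.34 (limma adjusted p = 0.0773), and with centred log ratios -2.86 (adjusted p = 0.0508). Lachnospiraceae with no genus name, up to 0.754% in IV mix and 0.543% to 1.80% in IV PBS libraries, had -3.65 (adjusted p = 0.0127), and -3.07 without the 65-read library (adjusted p = 0.0487). Kineothrix (-3.20, adjusted p = 0.00328) and Porcincola (-3.59, adjusted p = 0.00302) were also lower, though Kineothrix in run ok122 by itself did not pass (-2.54, adjusted p = 0.064).

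Oscillospiraceae and related families were also lower in IV mix libraries. They summed to at most 0.602% in IV mix and at least 1.06% in IV PBS libraries, and 7 of 14 tested genera were lower and 0 higher, with and without the 65-read library. Their median log2 change was -1.66, against 37.9% lower and a median of -1.46 over all genera. With centred log ratios 4 were lower and 1 higher, against 21 lower and 19 higher of all 95. Dysosmobacter, whose named species makes butyrate, held at most 0.268% in IV mix and at least 0.339% in IV PBS libraries (log2 change -4.37, limma adjusted p = 0.00174; -3.95 without the 65-read library, adjusted p = 0.00716). Eubacterium_R was at 0 in all 6 IV mix libraries and held 0.0586% to 0.326% in IV PBS libraries (limma adjusted p = 0.000147). Rikenellaceae and Marinifilaceae, bile-tolerant Bacteroidales of the gut, had 3 of 4 tested genera lower, and summed to at most 0.561% in IV mix against 0.744% to 2.85% in IV PBS libraries. The family CAG-508 had the largest fall of the families (-4.96, limma adjusted p = 3.6e-05), with up to 0.0965% in IV mix and 0.164% to 1.15% in IV PBS libraries.

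**Figure D4:**
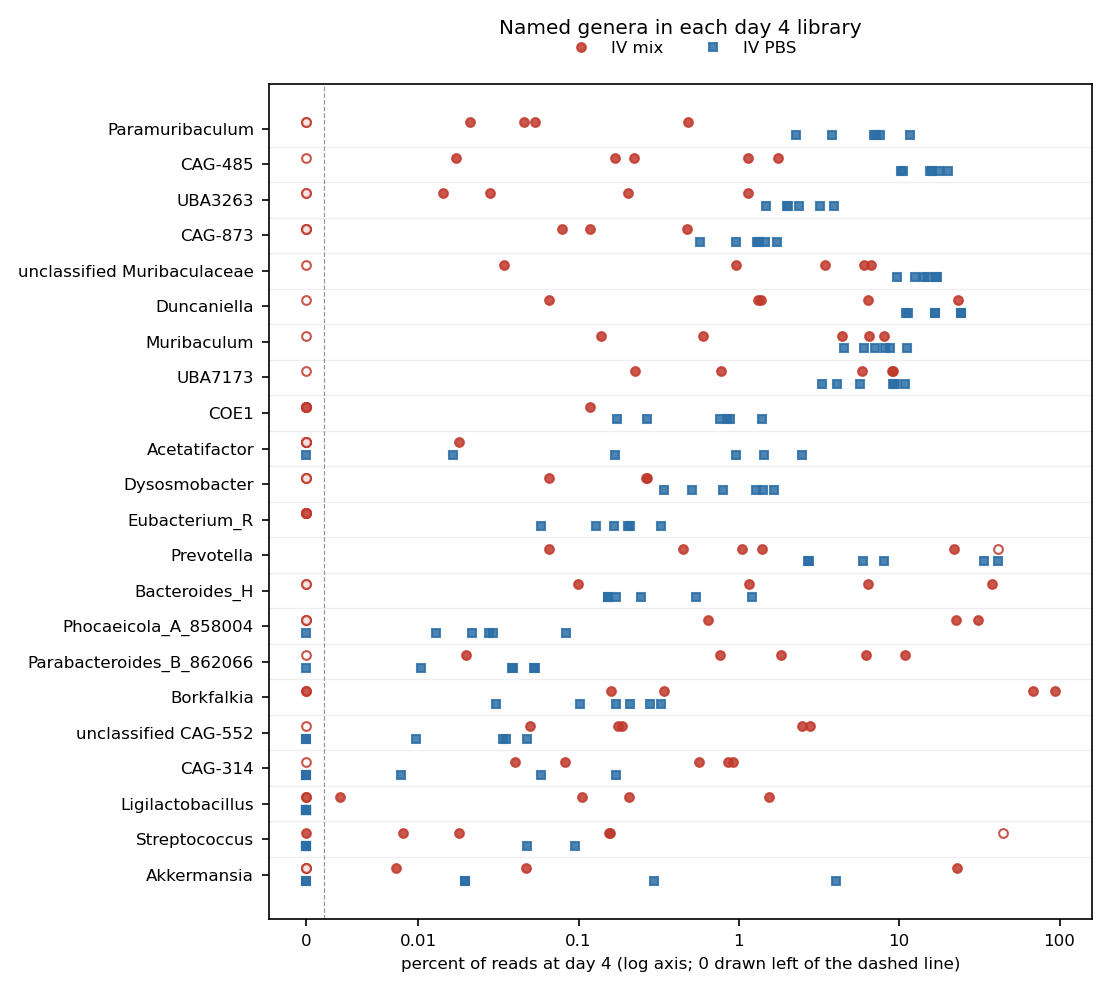
Percent of reads (log axis) of 22 named genera in each day 4 library, IV mix as red circles above IV PBS as blue squares; the open circle is the 65-read library, and values of 0 stand left of the dashed line. Paramuribaculum, CAG-485 and COE1 do not overlap between groups, whereas Borkfalkia, Phocaeicola and Bacteroides_H are above the IV PBS range in only 2 or 3 IV mix libraries.

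The rises were carried by fewer libraries. Parabacteroides, a relative of Bacteroides in the family Tannerellaceae, held 10.9%, 0.0198%, 1.82%, 6.18%, 0 and 0.765% in IV mix replicates 1 to 6, against 0 to 0.0536% in IV PBS libraries. Of the 6 IV mix libraries 4 lay above every IV PBS library, and the log2 change was 3.97 ± 1.32 (SE; limma adjusted p = 0.0105). It was 5.12 without the 65-read library (adjusted p = 0.00191). It did not pass without IV mix replicate 1 (3.11, adjusted p = 0.057) or in run ok122 by itself (3.25, adjusted p = 0.0732). Reads of the family CAG-552 with no genus name lay above every IV PBS library in the 5 deeper IV mix libraries, with 0.186%, 2.49%, 2.79%, 0.177% and 0.05003% in replicates 1, 2, 3, 4 and 6, against at most 0.0475% in IV PBS libraries. Their log2 change was 3.23 (limma adjusted p = 0.016), and 4.14 without the 65-read library (adjusted p = 0.00347). CAG-314 held up to 0.923% in IV mix and up to 0.17% in IV PBS libraries (log2 change 2.77, adjusted p = 0.0193); within run ok122 it was 1.75 (adjusted p = 0.187), and leaving out IV mix replicate 1, 2 or 3 gave adjusted p of 0.0579, 0.0684 and 0.0715.

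The remaining rises, of Ligilactobacillus and Streptococcus, did not pass when single libraries were left out. Ligilactobacillus, a lactic acid bacterium of the gut, was at 0 in all 6 IV PBS libraries and held 1.55%, 0.105%, 0.206% and 0.00323% in IV mix replicates 1 to 4 (limma adjusted p = 0.0193). It did not pass without IV mix replicate 1 (adjusted p = 0.14) or replicate 3 (adjusted p = 0.0645). Streptococcus had a log2 change of 2.77 (limma adjusted p = 0.0275) with the 65-read library, and of 1.10 without it (adjusted p = 0.329); leaving out IV PBS replicate 3, 4 or 5 gave adjusted p of 0.0559, 0.0525 and 0.0557. Phocaeicola, with 3.13 over all 6 libraries, did not pass (adjusted p = 0.0725), and passed without the 65-read library (4.09, adjusted p = 0.0255). Leaving out replicates 1 and 5 together gave 2.63 (adjusted p = 0.179). Borkfalkia, at 93.1% in replicate 3, did not pass either (1.84 ± 1.53 SE, adjusted p = 0.308), nor did Bacteroides_H (0.32, adjusted p = 0.833) or Akkermansia (-0.38, adjusted p = 0.842), which ran from 0 to 22.9% in IV mix libraries. The signs of both turned with 1 library left out, with ranges of -1.01 to 1.37 for Bacteroides_H and of -2.12 to 0.80 for Akkermansia (0.11 without the 65-read library). Prevotella had -2.23 (adjusted p = 0.109), with 0.445%, 1.40%, 0.0659%, 1.05%, 41.5% and 21.8% in IV mix replicates 1 to 6 and 2.69% to 41.2% in IV PBS libraries. Its change was -3.12 without the 65-read library (adjusted p = 0.031).

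Of 39 tested families 11 were lower (28.2%) and 5 higher (12.8%), together 41.0%. The higher families were Tannerellaceae, CAG-552, Streptococcaceae, CAG-314 and Staphylococcaceae, the last a family of skin and food bacteria at up to 0.198% in IV mix and up to 0.00838% in IV PBS libraries (log2 change 2.05, limma adjusted p = 0.0173). Streptococcaceae did not pass without the 65-read library (1.10, adjusted p = 0.334). With 1 library left out the number of lower families stayed at 11, while that of higher families was 1 without IV mix replicate 1 or 2, 2 without replicate 3, 3 without IV mix replicate 4 or IV PBS replicate 4 or 6, and 4 or 5 otherwise. Without the filter on presence 12 of 101 families were higher and 12 lower. Genera that often come from reagents, skin or food summed to 0.358%, 3.87%, 0.395%, 0.0315%, 44.6% and 0.0179% in IV mix replicates 1 to 6, against 0 to 0.126% in IV PBS libraries. In replicate 2 this was mostly Burkholderia and in replicate 5 Streptococcus, and their part in the other results was not tested beyond leaving out the list and unassigned taxa, which left the Shannon difference at -1.19 (exact permutation, adjusted p = 0.0162).

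Several lists held few tested genera or few calls, to be read against 5.26% higher and 37.9% lower over all 95 genera. Of 3 tested Bacteroidaceae genera 0 passed, with a median log2 change of 0.32. Without the 65-read library 1 of the 3, Phocaeicola, was higher and 1, Prevotella, lower (median 1.37). Among lactic acid bacteria 2 of 4 were higher, but 1 without the 65-read library and 0 without IV mix replicates 1 and 5 together. Among Desulfovibrionaceae 1 of 3 was lower, and among wall-less bacteria 1 of 3 was lower. With centred log ratios 2 of the 3 Desulfovibrionaceae genera were higher and 0 lower, so their calls depend on the scaling. Their median was above 0 on both scales, at 1.68 with centred log ratios and 0.24 in percent. The median of the wall-less bacteria changed sign, with 0.52 in centred log ratios and -0.92 in percent. Those of Akkermansiaceae (1.06 and -0.38) and gut Actinobacteriota (1.01 and -0.43) did so likewise. Centring shifts the changes of all genera by the same amount. These changes of sign follow from that shift and are not particular to the lists. The 1 tested genus of Akkermansiaceae did not pass. Escherichia, the 1 tested genus of Enterobacterales, did not pass over all 6 libraries (2.95, limma adjusted p = 0.0856) or without replicates 1 and 5 together (1.92, adjusted p = 0.307), but was higher without the 65-read library (3.62, adjusted p = 0.0499) and with centred log ratios (4.39, adjusted p = 0.0208). Of 2 tested genera of gut Actinobacteriota 0 passed. As a family, Eggerthellaceae of that list were lower in IV mix libraries (log2 change -1.73, limma adjusted p = 0.00136, and 0.00323 without the 65-read library). They were at 0 in all 6 IV mix libraries and in 1 IV PBS library, and held up to 0.0738% in IV PBS libraries. Bifidobacteriaceae, also of that list, did not pass (-0.06, limma adjusted p = 0.941). Erysipelotrichaceae and Coprobacillaceae had no genus in the test.

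The groups already differed at day 0, before any drug was given. The IV mix mice of day 0 are not all those of day 4, as given above. R2 between the day 0 libraries was 0.277 (exact permutation test, p = 0.00216, adjusted p = 0.0325 over 15 comparisons), and 0.293 among libraries of at least 1000 reads (adjusted p = 0.0649). The Shannon index was 3.05 ± 0.171 in IV mix and 2.94 ± 0.362 in IV PBS mice (SD, n = 6 each; exact permutation p = 0.513). Muribaculaceae held 27.7% to 40.2% in IV mix and 46.8% to 77.1% in IV PBS mice, without overlap. Lachnospiraceae held 14.1% to 45.2% in IV mix and 3.37% to 16.8% in IV PBS mice. Of 85 genera tested at day 0, 0 passed the threshold (0.0%; limma, 10 at an unadjusted p under 0.05). Depth differed in the same direction, as given above, and its part in these differences was not tested beyond that minimum. Since the day 4 differences contain those of day 0, each mouse was set against its own day 0 library, for 5 IV mix mice (replicates 2 to 6) and 6 IV PBS mice.

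Within mice the Shannon index fell in the mix mice relative to PBS mice. It changed by -1.69, -2.49, -0.96, -1.81 and -0.32 in IV mix replicates 2 to 6, against -0.68, -0.20, 0.13, 0.04, 0.14 and 0.27 in IV PBS replicates 1 to 6. All 5 IV mix mice were lower at day 4, and replicate 6 lay within the IV PBS range. The means were -1.46 ± 0.834 in IV mix mice (SD, n = 5) and -0.05 ± 0.346 in IV PBS mice (SD, n = 6), a difference of -1.40 (two-sided exact permutation p = 0.00433, adjusted p = 0.0325). Without the mouse of the 65-read library it was -1.31 (exact permutation, adjusted p = 0.0476). In mice with at least 1000 reads on both days, which also leaves out IV PBS replicate 4 with 529 reads at day 0, it was -1.30 and did not pass (adjusted p = 0.186). In mice with both libraries in run ok122, where 3 IV PBS mice remain, it was -1.20 and did not pass (exact permutation p = 0.0536, adjusted p = 0.125). In IV mix mice alone the fall had p = 0.0625 in an exact sign-flip test, the smallest that 5 mice can give, so this test could not pass.

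The change of composition was larger than that of the PBS mice. Day 4 and day 0 libraries of the same mouse lay 0.907, 0.988, 0.867, 0.839 and 0.509 apart in Bray-Curtis distance in IV mix replicates 2 to 6, against 0.255 to 0.411 in the 6 IV PBS mice, without overlap. The means were 0.822 ± 0.184 (SD, n = 5) in IV mix and 0.343 ± 0.0553 (SD, n = 6) in IV PBS mice (exact permutation p = 0.00216, the smallest that 5 against 6 can give, adjusted p = 0.00812). In mice with both libraries in run ok122 the difference was 0.453 (exact permutation, adjusted p = 0.0417), against 0.4795 in all. The mouse of uncertain route had 0.864.

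Of 90 genera tested within mice, 39 fell more in IV mix than in IV PBS mice (43.3%) and 0 rose more. Of these, 29 were also among the 36 that were lower at day 4, which is 74.4% of the list within mice and 80.6% of the day 4 list; both use the same day 4 libraries. In Lachnospiraceae 18 of 29 tested genera fell (median log2 difference -3.54, against -2.66 over all 90), and in Oscillospiraceae and related families 9 of 12 (median -3.62). In Muribaculaceae 5 of 8 fell (median -4.28). Without the mouse of the 65-read library 28 fell and 1 rose; 14 of 29 Lachnospiraceae genera, 6 of 12 Oscillospiraceae and related genera, and 4 of 8 Muribaculaceae genera then fell. In mice with both libraries in run ok122, with 3 IV PBS mice, 7 of 90 genera passed, all lower and all among the 39 (22 had an unadjusted p under 0.05). These were 4 of 8 Muribaculaceae genera (Paramuribaculum, CAG-485, UBA3263 and Muribaculaceae with no genus name), 2 of 29 Lachnospiraceae genera (COE1 and CAG-56) and the wall-less UBA6985, and 0 of 12 Oscillospiraceae and related genera. The median over all 90 was then -2.17. CAG-56 and UBA6985 were named after their values were seen.

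Lachnospiraceae together were at 0.435%, 0.0286%, 0.208%, 0 and 1.33% at day 4 in IV mix replicates 2 to 6, against 37.0%, 19.99%, 24.6%, 45.2% and 14.1% in the same mice at day 0. The family was lower in IV PBS mice too, in 4 of 6, with 1.77% to 7.50% at day 4 and 3.37% to 16.8% at day 0. Lachnospiraceae with no genus name averaged 0.193 ± 0.319% at day 4 and 14.6 ± 8.69% at day 0 in IV mix mice (SD, n = 5). They averaged 1.02 ± 0.491% at day 4 and 4.35 ± 2.57% at day 0 in IV PBS mice (SD, n = 6). The difference in change was -5.63 ± 1.46 (SE; limma adjusted p = 0.00343), or -4.50 in run ok122 alone (adjusted p = 0.0799). Kineothrix had the largest difference (-6.46, adjusted p = 0.00706), with all 5 IV mix mice lower at day 4. In IV PBS replicates 1 to 3 it was lower at day 4 as well, with 0.0894%, 0.0781% and 0.0975% at day 4 against 0.574%, 1.36% and 0.217% at day 0. In IV PBS replicates 4 to 6, whose day 4 libraries came from the other run, it held 0.447%, 0.174% and 0.164% at day 4 against 0 at day 0. These day 0 libraries were shallow, and a 0 there allows up to 0.567%, 0.103% and 0.0349%, in the same order. The day 4 value of replicate 4 lies below its limit. Porcincola was also at 0 in these day 0 libraries, and Dysosmobacter in that of replicate 4. In run ok122 alone the difference of Kineothrix was -2.89 and did not pass (limma adjusted p = 0.35). COE1 (-6.12, adjusted p = 0.00343), Acetatifactor (-6.23, adjusted p = 0.0087), Porcincola (-5.93, adjusted p = 0.0107) and Dysosmobacter (-6.00, adjusted p = 0.00706) were also lower at day 4 in all 5 IV mix mice and fell more than in IV PBS mice. In IV mix replicate 5, the 65-read library, a 0 allows up to 4.62%. The day 0 values of Kineothrix and these other genera in that mouse were at most 3.92%, so a fall is not shown there. All of these genera passed without the mouse of the 65-read library, with differences of -6.33 to -4.65. In run ok122 alone COE1 passed (-6.19, adjusted p = 0.0383), and Acetatifactor (-6.34, adjusted p = 0.0715), Porcincola (-3.50, adjusted p = 0.271) and Dysosmobacter (-4.43, adjusted p = 0.18) did not.

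Among the Muribaculaceae, Paramuribaculum averaged 0.111 ± 0.208% at day 4 and 5.33 ± 1.22% at day 0 in IV mix mice (SD, n = 5). In IV PBS mice it averaged 6.58 ± 3.28% at day 4 and 9.88 ± 3.23% at day 0 (SD, n = 6), and the difference in change was -6.34 ± 1.32 (SE; limma adjusted p = 0.000609), -5.89 without the mouse of the 65-read library (adjusted p = 0.00314) and -6.29 in run ok122 alone (adjusted p = 0.0159). CAG-485 averaged 0.617 ± 0.793% at day 4 and 7.54 ± 2.76% at day 0 in IV mix mice, lower in 5 of 5, and 15.01 ± 3.92% at day 4 and 13.4 ± 3.64% at day 0 in IV PBS mice (difference -5.65, adjusted p = 0.00343; -5.97 in run ok122 alone, adjusted p = 0.0188). The family sum did not follow in every mouse: replicate 6 held 46.8% at day 4 and 40.2% at day 0, and replicate 4 held 25.6% and 28.0%. In IV PBS mice Muribaculaceae were higher at day 4 in 4 of 6, for example 82.7% at day 4 against 46.8% at day 0 in replicate 3.

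None of the genera that were higher at day 4 passed within mice against PBS mice. Parabacteroides had a difference of 2.45 (limma adjusted p = 0.174), or 3.67 without the mouse of the 65-read library (adjusted p = 0.0553), and Burkholderia, at 3.59% in replicate 2, was the 1 genus that then passed (2.93, adjusted p = 0.048). In IV mix mice taken alone 54 genera fell (60.0%) and 5 rose (5.56%) between the days, 65.6% of 90 together, whereas in IV PBS mice alone 1 fell and 1 rose (1.11% each, 2.22% together). The 5 were Parabacteroides, Phocaeicola, CAG-552 with no genus name, CAG-314 and Burkholderia. Phocaeicola, at 0 in 4 of these 5 mice at day 0, was higher at day 4 in 2 of 5 IV mix mice and in 5 of 6 IV PBS mice, at much lower levels in the PBS mice (0.0292 ± 0.0288% at day 4). Depth does not resolve all of these PBS rises. IV PBS replicates 4 and 5 held 0.0276% and 0.0130% at day 4, and their 0 at day 0 allows up to 0.567% and 0.103%. Replicates 2 and 3 held 0.0217% and 0.0293% at day 4, just above the limits of their day 0 libraries, 0.0215% and 0.0282%.

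**Figure D5:**
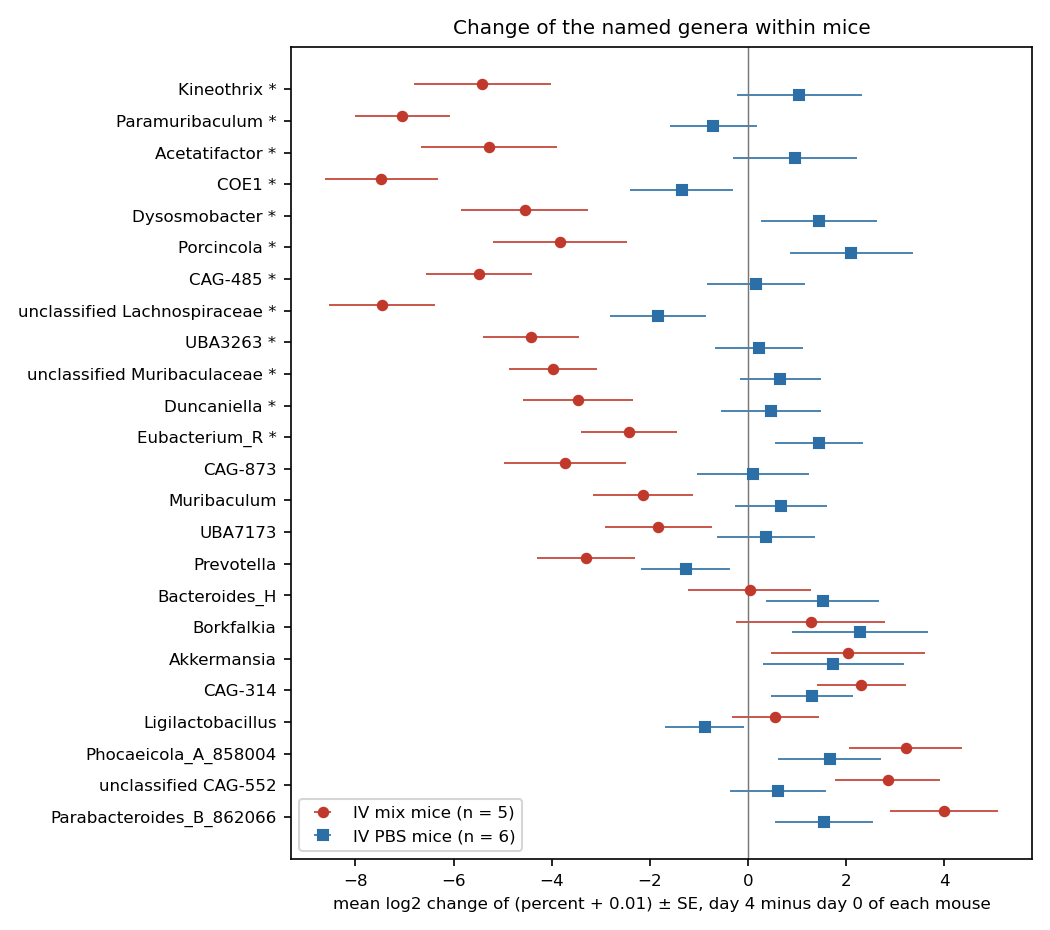
Mean log2 change of percent plus 0.01 between day 0 and day 4 of each mouse (horizontal axis, bars are standard errors of the limma fit) for the named genera, IV mix mice as red circles above IV PBS mice as blue squares. An asterisk marks an adjusted p under 0.05 for the difference; the marked genera all fell more in IV mix mice, led by Kineothrix with a difference of -6.46 (-2.89 in run ok122 alone, not passing).

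The IV mix libraries were then set directly against other treated groups at day 4, in 3 contrasts that share the IV mix libraries. Against the same mix given by mouth (4 libraries, of which 1 held 556 reads and 2 came from run SB1), 1 of 95 genera differed (1.05%). Burkholderia, a genus of soil bacteria that includes many strains resistant to several drugs, is also on the list of genera from reagents, skin or food. It held at most 3.59% in IV mix libraries and 0.0903%, 37.8%, 91.9% and 96.0% in the 4 oral mix libraries. The log2 difference was -8.25 ± 1.30 (SE; limma adjusted p = 1.05e-06), and -7.82 without the 65-read library (adjusted p = 1.06e-05). With all libraries thinned to 1000 reads, which leaves out both shallow libraries, 0 of 59 genera passed (4 at an unadjusted p under 0.05). Borkfalkia, at up to 93.1% in IV mix libraries, reached 0.903% in oral mix, 0.904% in IV vancomycin and 3.59% in IV ampicillin libraries, and did not pass in these contrasts.

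Against intravenous vancomycin, 1 of the drugs in the mix (6 libraries), 7 genera differed (7.37%), with 2 higher (2.11%) and 5 lower (5.26%) in IV mix libraries. Of the IV vancomycin libraries 3 came from run SB1, whereas all IV mix libraries came from run ok122. This contrast was not tested within run ok122. Parabacteroides held at most 10.9% in IV mix and 0.521% to 69.5% in IV vancomycin libraries (log2 difference -4.69, limma adjusted p = 0.0141). Bacteroides_H (-4.98, adjusted p = 0.0121), Escherichia (-5.12, adjusted p = 0.0141) and Alistipes (-3.92, adjusted p = 0.0141) were also lower in IV mix libraries. Mailhella, a sulfate-reducing relative of Desulfovibrio, held at most 0.0647% in IV mix and up to 0.333% in IV vancomycin libraries (-3.00, adjusted p = 0.00593). CAG-552 with no genus name (3.43, adjusted p = 0.0485) and Streptococcus, at 0 in all IV vancomycin libraries (adjusted p = 0.0141), were higher in IV mix libraries. Of these 7, only Mailhella (-2.80) and CAG-552 (4.33) passed when the 65-read library was left out, both at adjusted p = 0.0108.

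Against intravenous ampicillin (4 samples, since 2 of its 5 libraries were nearly identical and were averaged), 1 genus differed (1.05%). Paramuribaculum held 0 to 0.481% in IV mix and 0.189% to 9.58% in IV ampicillin samples (log2 difference -4.71, limma adjusted p = 0.0247). It was -4.30 without the 65-read library and did not pass (adjusted p = 0.0782). With so few samples and such spread between the mice of a group, a genus that missed the threshold in these contrasts is not shown to be alike. The Shannon index averaged 1.75 ± 0.828 in IV mix (SD, n = 6), 1.29 ± 1.09 in oral mix (SD, n = 4), 1.85 ± 0.748 in IV vancomycin (SD, n = 6) and 2.13 ± 0.29 in IV ampicillin libraries (SD, 5 libraries). These differences were not tested.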

How the data were processed

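Stool DNA was amplified over the V4 region with 30 to 35 PCR cycles for Illumina MiSeq sequencing, according to the labels. Read processing, taxonomy database and versions: not given in the sources used here. Deposited by the authors were taxon abundances as a signal that sums to 100000 in each library (488 taxa), and sample sheets with antibiotic, route, day and replicate. Empty cells were read as 0, and the mouse was read from the sample name. Each library's nonzero values proved to be whole multiples of its own step, to a tolerance of 0.02 reads or 1e-05, and the step gives its depth. It is a lower limit if all counts share a factor, and no count model was fitted. Depth ran from 65 to 123669 reads in the 12 libraries compared. Limits and intervals describe counting error alone, because amplified reads do not stand for separate molecules. In 183 of the 198 libraries the smallest value was 2 reads. A 0 there can stand for a single read that is missing, and the limits given for 0 are then too low. Of 50 pairs of libraries within the IV mix and IV PBS groups 0 agreed within sampling noise.

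Percent of reads was summed by genus (316) and family (107). Shannon indices were compared by exact permutation and Bray-Curtis distances by an exact permutation test of R2, adjusted by Benjamini-Hochberg over 15 comparisons. Genera and families were tested with limma 3.58.1 (R 4.3.3), on log2(percent + 0.01) with 18 groups of day 4 samples fitted jointly (89 samples after 2 nearly identical pairs were averaged), if found in 20% or more of them. Changes within mice were tested likewise on day 4 minus day 0. The scripts were tested on simulated data. Genera named are the 10 commonest at day 0, up to 10 rises and 10 falls, those with a mean of 5% or a library of 20% in IV mix, up to 8 per direction within mice, up to 5 per direct contrast and up to 6 families per direction. Members of lists with counts are also named. The members, lists and named genera were chosen with earlier results of these data known. Alternatives tried are given in the closing section.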

Additional observations from a re-analysis of the deposited data

Results flagged for a closer look

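Among the 6 IV mix libraries at day 4, single libraries lay far from the others of their group for 5 genera, by Dixon's criterion at the 95% level. Replicate 2 held 0.119% COE1 and 0.0659% Porcincola, and both genera were at 0 in the other 5 IV mix libraries. Replicate 6 held 22.9% Akkermansia, against at most 0.0473% in the other 5, and 0.0179% Acetatifactor, against 0 in the other 5. Replicate 5, the library of 65 reads, held 44.6% Streptococcus, against at most 0.158% in the other 5. Chance passes the criterion in about 1 in 20 groups, but for COE1, Porcincola and Acetatifactor the other 5 values are all 0, so any value above 0 passes it and that rate does not hold. The value of Acetatifactor lies below the shares that a 0 allows in replicate 2 (0.0198%) and replicate 5 (4.62%).

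The difference between mix and PBS libraries in Burkholderia was not alike by vein and by mouth. The change of the mix against PBS, taken by vein minus by mouth, was -8.57 on the log2 scale (SE 1.79; limma interaction term, adjusted p = 0.000653 over 95 genera). It was the 1 genus of 95 that passed, and 6 had an unadjusted p under 0.05. IV mix libraries held up to 3.59% and IV PBS libraries up to 0.0304%, while oral mix libraries held 0.0903% to 96.0% and oral PBS libraries up to 0.00775%.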

How the results depend on the processing

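Of the values and counts that answer a comparison, 188 alternatives kept direction and side of the threshold (counts within 1.5 times), 27 moved, 17 no longer passed, 1 newly passed and 1 reversed. For single named genera 533 kept both, 60 no longer passed, 14 newly passed, and 14 changed sign without passing on either side, 10 for Akkermansia and 4 for Bacteroides_H. The reversal was the Shannon difference by family, 0.25 (main value -1.14). In run ok122 alone the Shannon difference of -1.23 and R2 of 0.246 no longer passed after adjustment; run SB1 alone holds no IV mix library. At day 0, R2 was 0.293 among libraries of at least 1000 reads and no longer passed. Leaving out 1 library gave 0.246 to 0.302, and IV mix replicates 3, 4 and 5 and IV PBS replicates 2, 5 and 6 each ended the call (adjusted p 0.0649 or 0.195). The Shannon change within mice ran from -1.69 to -1.14 with 1 mouse left out, and did not pass without any 1 of IV PBS replicates 2 to 6 (adjusted p 0.0536). It was -1.30 in mice with at least 1000 reads on both days and -1.21 with the mouse of uncertain route kept, both no longer passing, as was the case at -1.20 in mice with both libraries in run ok122; that mouse made the fall in IV mix mice -1.26 (exact sign-flip p = 0.03125).

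Thinning to 1000 reads left 22 genera at day 4 of 59 tested (main 41 of 95), with fewer genera and no 65-read library. Day 0 genera were 3 without a filter and 0 to 1 with 1 library left out. Genera within mice were 25 of 44 when presence in 50% of samples was required (main 39 of 90), and 7 of 90 in mice with both libraries in run ok122. Against oral mix (main 1) there were 3 genera without the 65-read library, 0 thinned, 0 at 50% presence, 11 without a filter, and 1 to 3 with 1 library left out. Against IV vancomycin (main 7) there were 3 without the 65-read library, 2 with 0.001 added, 3 without a filter, and 3 to 8 with 1 left out. Against IV ampicillin (main 1) there were 0 without the 65-read library, 2 thinned, 0 without a filter, and 0 to 4 with 1 left out. Apart from fewer libraries or genera, the cause was not tested.

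With the replicate number as a block 27 genera passed at day 4 (0 higher, 27 lower). Same-numbered IV mix and IV PBS libraries correlated in their deviations by -0.276 to 0.164. The labels do not state whether such mice shared more than a number. The planned count model in edgeR was not run, since too few low values per library let the recovered reads be checked. Leaving out replicates 1 and 5 together, keeping the mouse of uncertain route and taking only mice with both libraries in run ok122 were chosen after seeing the data. In the 65-read library a 0 excludes only shares above 4.62%, and 5 IV mix mice cannot reach p under 0.0625 alone.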

Other observations

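The species of the 65-read library were looked for in the rest of the series. Prevotella histicola was found in 12, Streptococcus with no species name in 28, Gemella in 13 and Rothia sp001808955 in 9 of the other 197 libraries. Their highest values in the other IV mix libraries were 0.132%, 0.158%, 0.0107% and 0.0132%, and in IV PBS libraries 0.0174%, 0.0955%, 0.00975% and 0.0293%, in the same order. The mouse of uncertain route, IV mix replicate 1, had a Shannon index of 2.53 at day 4 and of 2.82 at day 0, a change of -0.29, with 57038 reads at day 4 and 1898 at day 0.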
